A study of Mus musculus with 48 samples.

Results

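The genes described here are 51 genes of the cell cycle and of the crypt stem cell compartment, measured in mouse jejunum, a segment of the small intestine. They were chosen by name: 23 act in G1 or at the G1/S transition, 18 act in G2 and mitosis, and 10 are stem cell markers or Wnt pathway genes. Each name was matched to the Ensembl gene ID of the deposited count table through the GENCODE M21 annotation of GRCm38 (mm10). All 51 passed the low-count filter, as did 15646 genes of the 55401 in the table. The table came from RNA sequencing of whole jejunal tissue from mice in constant darkness. The control carries floxed Bmal1 alleles (bmal1fl/fl) and the knockout is written Bmal1iec-/-, in which loss of Bmal1 is aimed at the intestinal epithelium. The labels name no Cre driver, no age and no agent. Tissue was taken at 6 circadian times (CT), CT1, CT5, CT9, CT13, CT17 and CT21, where CT0 would be the start of the subjective day, the resting phase of a mouse. Each of the 12 groups of genotype and time has 4 libraries, except knockout CT9 with 3, since 1 of the 48 labelled libraries was not analysed here. Whether every library stands for a separate animal is not stated, so the p-values speak only of the spread among these libraries, which may be technical.

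The intestinal lining is renewed by stem cells at the crypt base, which are kept dividing by Wnt signals and whose daughters divide several times in the crypt before they differentiate. Cyclin D and cyclin E with their kinases, and the E2F factors, carry a cell through G1 into S phase, where the MCM helicase, PCNA and the nucleotide enzymes serve DNA replication. Cyclin B with CDK1 then drives mitosis: WEE1 holds CDK1 off by phosphorylation, and the CDC25 phosphatases remove that phosphate. Transcripts of this last set peak in G2 and mitosis, and their promoters are known for CCAAT boxes and for the cell cycle genes homology region (CHR), whereas many G1/S genes carry E2F sites. In liver, Wee1 is known as a target of the circadian clock through E-boxes. In bulk tissue, fewer cells of a type and less RNA per cell cannot be told apart.

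The promoter letters are shown first because CCAAT, CHR and E2F motifs are textbook features of these gene groups; the counts are descriptions, and differences between the groups were not tested. RefSeq promoters (GRCm38.p6, 250 bases before to 50 after the start) matched 37 of the 51 genes with 42 windows: 17 G1/S genes, 14 G2/M genes and 6 stem or Wnt genes. The motifs were searched on both strands. CCAAT was in the windows of 13 of 14 G2/M genes, 11 of 17 G1/S genes and 4 of 6 stem or Wnt genes, against 37.4% of all 32851 promoters. Here and below a gene counts if any of its windows has the motif, whereas the shares over all promoters are per window. Per window CCAAT was in 13 of 14 (G2/M), 12 of 19 (G1/S) and 4 of 9 (stem or Wnt, 44.4%). The CHR letters TTTGAA were in 9 of 14 G2/M genes, 2 of 17 G1/S genes and 0 of 6 stem or Wnt genes, against 17.9% of all promoters. Both motifs were held by the same 9 G2/M genes and the same 2 G1/S genes (Cdc45 and Mcm2), against 6.95%. The E2F motifs were the letters TTCCCGC, the form TTGGCGC and the form TTCGCGC, of which the last 2 can overlap on opposite strands. Any of them was in 8 of 17 G1/S genes, 3 of 14 G2/M genes and 2 of 6 stem or Wnt genes (Ascl2 and Axin2), against 8.07% of all promoters. The E-box CACGTG was in 2 of 17 G1/S genes (Cdk4 and Tyms), in 0 of 14 G2/M genes and in 1 of 6 stem or Wnt genes (Tnfrsf19), against 7.15%. The search covers windows of 300 bases and 14 of the 18 G2/M genes, so it does not tell whether Wee1 has an E-box. The E-box-like letters CACGTT were in 3 of 14 G2/M genes (Ccnb2, Bub1 and Bub1b), against 4.68%. The last 150 bases before the start are given for 4 G2/M genes, Cdc20, Top2a, Cdk1 and Cdc25b, and for the helicase subunit Mcm6. They lie at chr4:118437344-118437493 (minus strand), chr11:99024190-99024339 (minus), chr10:69352913-69353062 (minus), chr2:131186798-131186947 (plus) and chr1:128359706-128359855 (minus), in that order, and capitals mark the CCAAT, CHR and E2F letters on either strand.
Cdc20: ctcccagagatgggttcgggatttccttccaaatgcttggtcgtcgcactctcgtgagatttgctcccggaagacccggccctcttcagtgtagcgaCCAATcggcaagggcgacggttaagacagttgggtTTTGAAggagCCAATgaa
Top2a: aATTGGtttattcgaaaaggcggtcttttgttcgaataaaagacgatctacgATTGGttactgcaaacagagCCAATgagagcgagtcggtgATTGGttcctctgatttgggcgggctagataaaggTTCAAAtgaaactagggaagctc
Cdk1: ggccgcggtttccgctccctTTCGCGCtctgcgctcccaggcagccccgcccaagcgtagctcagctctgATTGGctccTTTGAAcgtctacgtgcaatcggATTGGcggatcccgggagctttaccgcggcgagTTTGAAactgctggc
Cdc25b: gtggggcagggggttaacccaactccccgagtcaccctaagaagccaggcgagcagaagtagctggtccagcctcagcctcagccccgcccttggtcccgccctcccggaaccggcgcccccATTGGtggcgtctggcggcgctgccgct
Mcm6: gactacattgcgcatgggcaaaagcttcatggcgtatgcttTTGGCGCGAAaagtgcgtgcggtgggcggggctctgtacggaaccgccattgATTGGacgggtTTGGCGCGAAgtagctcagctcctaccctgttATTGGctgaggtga
Cdc20, Top2a and Cdk1 hold CCAAT and CHR letters within these bases. Cdc25b has 1 CCAAT and no CHR letters there. Mcm6 has the overlapping E2F letters on both strands at 2 places, and 2 CCAAT boxes. These matches describe letters and say nothing of binding.

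Library totals ranged from 4.34 to 6.91 M counts (M, the SI prefix mega), with a median of 5.43 M. Values are counts per M counts of the tested genes after TMM scaling (CPM), so they compare a gene between libraries and not genes with each other. In 5 libraries many genes departed from their median level: the interquartile range of log2 CPM relative to the gene medians was 0.60 to 1.12, against at most 0.476 in the others. They comprise 3 of the knockout CT1 group (replicates 1, 2 and 3), knockout CT21 replicate 4 and control CT21 replicate 1, and longer genes were lower in them (slopes of -0.262 to -0.108 log2 units per doubling of exonic length, against -0.05 to 0.07 in the others). Counts of called genes are also given without them for the 51 genes. For named genes whose call was lost without them, the log2 fold change, amplitude or adjusted p without them is given. Arntl, the gene of BMAL1, ranged from 8.48 CPM (CT9) to 89.5 CPM (CT21) in the 24 control libraries and from 18.4 to 37.0 CPM in the 23 knockout libraries, a narrower span. Its counts are summed over all exons, and the labels do not state which part is deleted, so they do not test the deletion alone. The 7 measured of 8 T cell and intraepithelial lymphocyte markers had summed levels of 101 to 382 CPM (control) and 52.9 to 121 CPM (knockout). For the 7 measured of 8 B cell markers the sums were 6.27 to 261 CPM (control, highest in CT9 replicate 1) and 4.99 to 17.1 CPM (knockout). The 8 enterocyte markers, which define the labelled tissue, had sums of 21030 to 35480 CPM (control) and 21740 to 37210 CPM (knockout). Dividing lymphocytes also express cell cycle genes, and their part in the results below was not tested.

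The 51 genes spanned a wide range of levels per length. On the scale of control CPM per kilobase of exon, the stem cell marker Olfm4 was highest with 306, followed by the CDK inhibitor Cdkn1a with 46.4, the replication clamp Pcna with 38.4 and the G1 kinase Cdk4 with 29.0. The G2/M genes ranged from 1.37 (Cdc25c) to 22.8 (Mki67, the proliferation marker). Lgr5, a marker of the crypt base stem cell, was at 1.47. The ligases Rnf43 and Znrf3, which remove Wnt receptors from the cell surface, were at 6.00 and 1.26. No library had a count of 0 for any of the 51 genes, so the markers of dividing cells (Mki67, Top2a) and of crypt base cells (Lgr5, Olfm4, Ascl2, Smoc2) were read in all 47 libraries. Ascl2 was low, with 1.03 to 6.45 CPM in the control libraries.

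In control jejunum most G2/M genes were highest at CT21 or CT1, and their mean level was lowest at CT13. A 24-h cosine passed the test (edgeR quasi-likelihood, adjusted p under 0.05 over all genes tested) for 16 of 18 G2/M genes, 9 of 23 G1/S genes and 4 of 10 stem or Wnt genes. Over all genes tested 20.5% passed. Of the 18 G2/M genes, 10 were highest in the CT21 group and 6 in the CT1 group, while 10 were lowest in the CT13 group. How many of all genes tested were highest or lowest in each group was not counted, here or in knockout. The fitted peaks of 15 of the 18 lay between CT21 and CT3, as did those of 3741 of all 15646 genes tested. Among genes with a called control rhythm it was 13 of 16 G2/M genes, against 23.4% of all such genes. Without the 5 libraries that stand apart (29.0% of all genes tested called), 17 of 18 G2/M genes, 12 of 23 G1/S genes and 4 of 10 stem or Wnt genes passed, and all 29 genes called with them were among those. A test of any difference among the 6 times, with no wave assumed, called 21 of the 51 genes in control (14.8% of all genes tested) and 11 in knockout (12%), and without the 5 libraries 35 (25.7%) and 13 (8.38%).

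**Figure D1:**
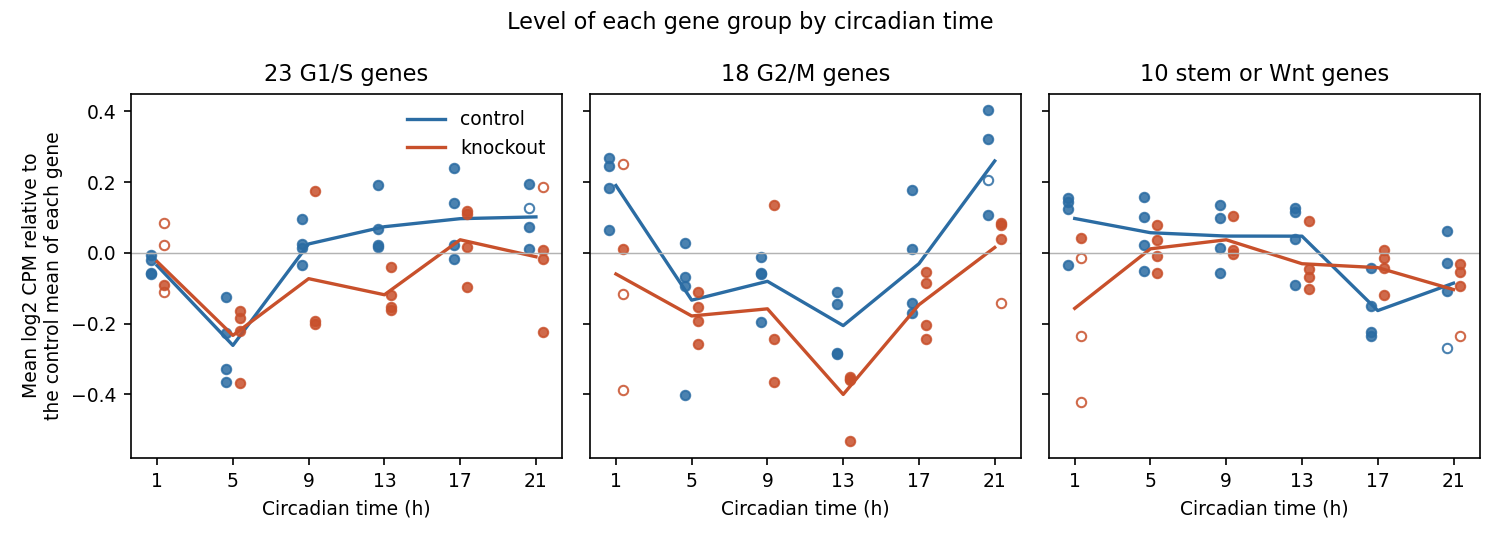
Mean log2 CPM of the G1/S, G2/M and stem or Wnt genes relative to each gene's control mean (y axis) at 6 circadian times (x axis, h). Points are libraries, open points the 5 libraries that stand apart, and lines join group means; the G2/M level in control runs from -0.21 at CT13 to 0.26 at CT21.

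Cyclin B1 (Ccnb1), the partner of CDK1 in mitosis, shows the G2/M pattern. In control it read 43.1, 40.8, 50.9 and 40.6 CPM at CT1, 31.1, 37.1, 26.0 and 32.7 at CT5, 33.6, 24.9, 30.7 and 32.1 at CT9, 23.1, 20.6, 23.5 and 25.1 at CT13, 32.3, 29.97, 30.1 and 29.3 at CT17, and 39.8, 42.3, 46.2 and 41.6 at CT21. The lowest CT1 or CT21 library was thus above every library of the other 4 times. The fitted amplitude (the distance from the daily mean to the peak, log2) was 0.41 ± 0.07 (SE) with a peak at CT23.9 (edgeR adjusted p = 1.62e-05).

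Several other mitotic genes were also highest at CT21 or CT1 in control, with their lowest group at CT13 or CT9. The kinase Aurka went from 16.7 ± 2.64 CPM (SD, n = 4) at CT9 to 32.8 ± 6.72 at CT21, and Cdc20, which activates the anaphase-promoting complex, from 18.02 ± 2.53 at CT13 to 41.6 ± 14.4 at CT21. The phosphatase Cdc25c went from 4.52 ± 0.83 CPM at CT13 to 9.33 ± 1.24 at CT21. Cyclin B2 (Ccnb2) went from 22.7 ± 2.09 to 39.5 ± 3.95 CPM between the same times. Each of these was between 1.74 and 2.31 times higher in its highest group than in its lowest, and each had a fitted peak between CT21 and CT1. The centromere motor Cenpe (24.0 ± 0.64 CPM at CT13, 41.0 ± 4.88 at CT1), cyclin A2 (Ccna2, 46.3 ± 4.42 and 69.0 ± 6.82 at CT21), the kinase Cdk1 itself (36.4 ± 6.03 and 56.3 ± 10.9) and the survivin gene Birc5 (35.0 ± 5.15 and 56.5 ± 16.6) passed as well. So did the kinases Aurkb and Plk1, the topoisomerase Top2a and the spindle checkpoint genes Bub1 and Bub1b, with amplitudes of 0.19 to 0.32. Control CT21 replicate 1, which stands apart, held 62.65 CPM of Cdc20, against 30.1 to 38.0 in the rest of its group. It also held the highest CT21 control values of Aurka (41.9 CPM), Ccnb2 (45.4), Cdk1 (69.1) and Birc5 (78.3), but the lowest of Ccna2 (61.95). Its Cdc25c value of 8.75 CPM lay between the others. Bub1 passed narrowly (edgeR adjusted p = 0.0473): its call was lost with the DESeq2 size factors (0.0537), with limma-voom (0.0721), without the low-count filter (0.077) and on leaving out any of 36 of the 47 single libraries (up to 0.121). The calls of Plk1, Top2a and Bub1b were lost on leaving out any of 6, 6 and 8 single libraries, up to adjusted p-values of 0.0752, 0.0837 and 0.0843. Without the low-count filter these calls (0.114, 0.071 and 0.0862) and that of Aurkb (0.0545) were lost as well.

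The 2 G2/M genes that did not pass in control were Mki67 and the spindle motor Kif11. Mki67 was at 279 ± 37.1 CPM at CT1 and 196 ± 48.7 at CT5 (adjusted p = 0.187). Kif11 had an adjusted p of 0.373 with all libraries and 0.00324 without the 5 that stand apart; control CT21 replicate 1 held its lowest control value of 14.97 CPM. Kif11 has 7461 bases of exon. Among the 18, the peaks of Wee1 (CT14.0), Bub1 (CT19.5) and Cdc25b (CT4.85) lay outside the CT21 to CT3 window.

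Most G1/S genes had an earlier fitted peak. In control 18 of the 23 were lowest in the CT5 group, a count not taken over all genes tested. A fitted peak between CT15 and CT21 was found for 17 of the 23, as for 4131 of all 15646 genes tested. Among genes with a called control rhythm it was 7 of 9 G1/S genes, against 28.5% of all such genes. The median fitted amplitude was 0.20 log2 units, against 0.28 for the G2/M genes and 0.17 over all genes tested. The largest was that of cyclin E2 (Ccne2), 0.46 ± 0.11 (SE) with a peak at CT17.8, whose control libraries read 16.1 to 18.1 CPM at CT17 and 6.53 to 12.2 CPM at CT5. The replication clamp Pcna went from 75.5 ± 4.25 CPM (SD, n = 4) at CT5 to 101 ± 4.95 at CT17. The helicase subunits Mcm2 and Mcm5 went from 24.6 ± 5.33 and 34.4 ± 2.46 CPM at CT5 to 40.8 ± 2.63 at CT13 and 54.1 ± 8.28 at CT21, respectively. At CT21 Mcm5 was at 65.6 CPM in control replicate 1, which stands apart, and at 45.9 to 52.6 in the others. Without the 5 libraries its fitted control peak was at CT17.6. The ribonucleotide reductase gene Rrm2 (23.6 ± 3.27 CPM at CT5, 37.8 ± 5.88 at CT21) and the origin licensing factor Cdc6 (6.89 ± 0.48 at CT5, 13.0 ± 4.14 at CT17) passed too. Rrm1 passed narrowly (edgeR adjusted p = 0.0481): its call was lost with the DESeq2 size factors (0.0564), with upper-quartile scaling (0.0587), without the low-count filter (0.116) and on leaving out any of 43 of the 47 single libraries (up to 0.173). The call of Cdc6 was lost on leaving out any of 6 single libraries (up to 0.115). Cyclin D2 (Ccnd2) peaked at CT11 and the growth factor response gene Myc at CT8.64 (25.3 ± 1.54 CPM at CT9, 17.3 ± 2.44 at CT17), apart from the other G1/S genes with a rhythm, and each of these calls was lost on leaving out any of 7 single libraries (up to adjusted p-values of 0.0892 and 0.0745).

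**Figure D2:**
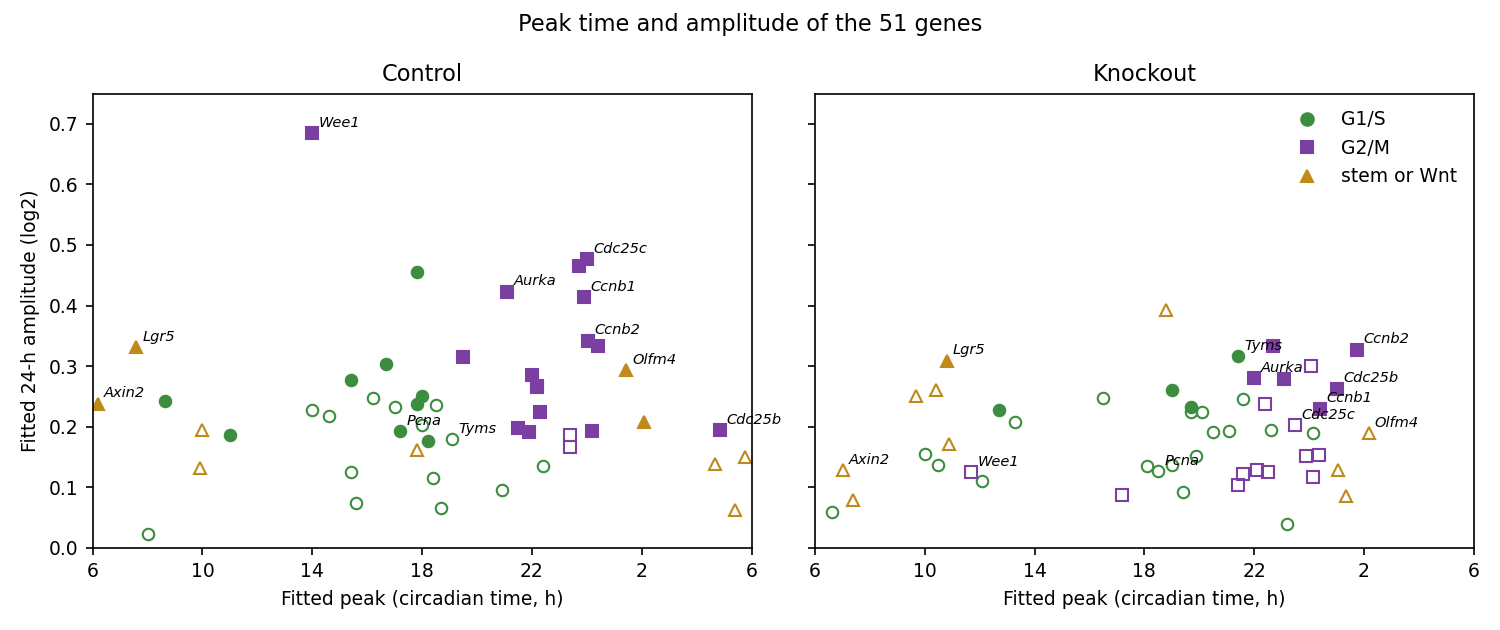
Fitted 24-h amplitude (y axis, log2) against fitted peak time (x axis, circadian hours from 6 through 24 to 6) of the 51 genes in control and knockout. Filled symbols passed at an adjusted p under 0.05; in control the G2/M squares gather near CT22 to CT0 and the G1/S circles near CT16 to CT19, with Wee1 apart at an amplitude of 0.68.

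The stem and Wnt genes had no common course. Axin2, a Wnt feedback inhibitor and a standard readout of the pathway, was highest at CT5, with 65.3, 60.7, 53.6 and 53.4 CPM, and lowest at CT17, with 41.7, 45.0, 36.4 and 38.8 CPM. These 2 groups did not overlap, and the fitted peak was at CT6.19 with an amplitude of 0.24 ± 0.05 (edgeR adjusted p = 0.000641). Lgr5 read 18.7, 16.3, 22.7 and 14.9 CPM at CT5 and 6.45, 11.6, 9.99 and 14.6 CPM at CT21, with a peak at CT7.59 (adjusted p = 0.0175). Olfm4, in contrast, was highest at CT1 with 1076 to 1279 CPM and lowest at CT13 with 654 to 889 CPM (peak at CT1.42, adjusted p = 0.00184). Prom1, a membrane protein of crypt base cells, peaked at CT2.10 (adjusted p = 0.0147). Thus Olfm4 and Prom1 were high at the times when the G2/M genes were high, and Axin2 and Lgr5 were high at other times. The remaining 6, Ascl2, Smoc2, Sox9, Tnfrsf19, Rnf43 and Znrf3, did not pass.

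**Figure D3:**
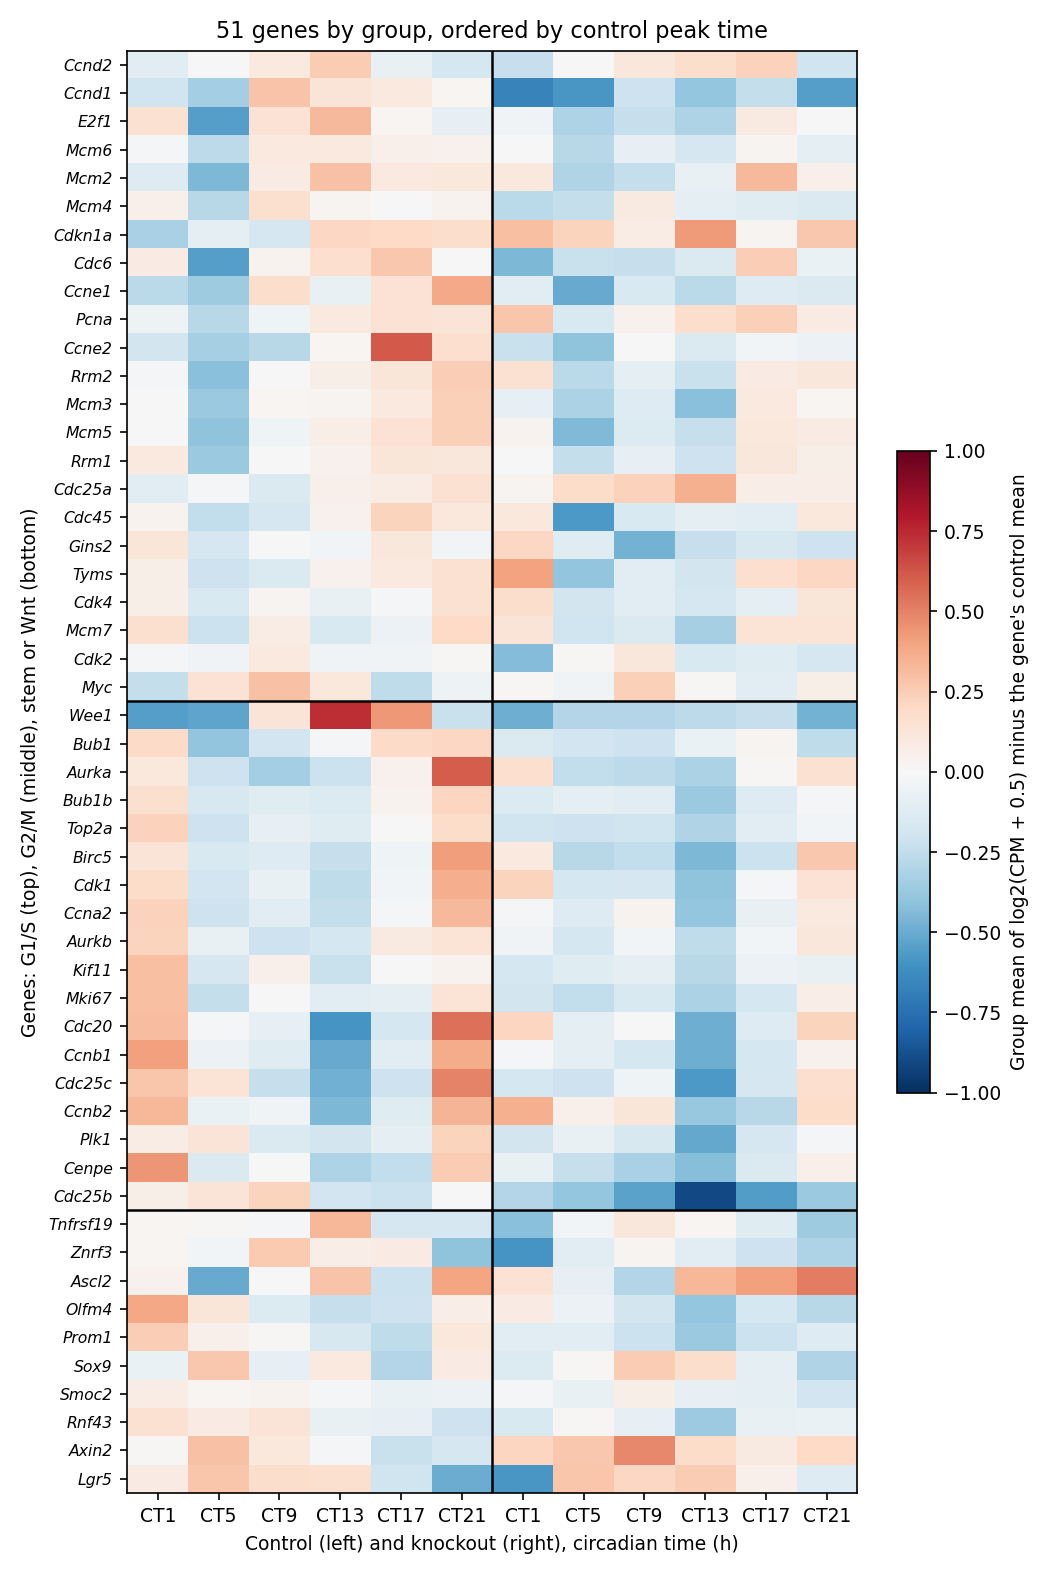
Group means of log2(CPM + 0.5) minus the gene's control mean for the 51 genes (rows, ordered by control peak within G1/S, G2/M and stem or Wnt genes) in the 12 groups (columns, circadian time in h). Most G2/M rows are highest at CT21 or CT1 (16 of 18 in each genotype), and CT13 is the lowest column for 10 of 18 in control and 16 of 18 in knockout; in control Wee1 is highest at CT13 and Cdc25b at CT9.

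In knockout jejunum most G2/M genes were again highest at CT21 or CT1 and lowest at CT13, but fewer passed the rhythm test. A 24-h rhythm was called for 6 of 18 G2/M genes (Ccnb1, Ccnb2, Cdk1, Cdc25b, Aurka and Birc5), 4 of 23 G1/S genes (Ccnd2, Mcm2, Mcm5 and the thymidylate synthase Tyms) and 1 of 10 stem or Wnt genes (Lgr5), against 14.6% of all genes tested. Of the 18 G2/M genes, 11 were highest in the CT21 group and 5 in the CT1 group, 16 were lowest at CT13, and 16 had a fitted peak between CT21 and CT3, as did 4847 of all 15646 genes tested. Without the 5 libraries that stand apart the counts were 6, 4 and 0 (10.4% of all genes tested called), but only 3 of the G2/M genes (Ccnb1, Ccnb2 and Cdc25b) and 2 of the G1/S genes (Mcm2 and Tyms) were called both ways. Single libraries moved the total of 11 further: it was 6 without knockout CT9 replicate 4, 7 without knockout CT5 replicate 2 or 4, CT9 replicate 2 or CT17 replicate 3, 17 without CT21 replicate 1 and 20 without CT9 replicate 3. The knockout call of Ccnb1 was lost on leaving out any of 12 single libraries (up to an adjusted p of 0.2) and that of Mcm2 on leaving out any of 6 (up to 0.0809). Those of Lgr5, Mcm5 and Aurka were lost on leaving out any of 19, 9 and 2 (up to 0.104, 0.138 and 0.0586). Cdk1, Aurka, Birc5, Ccnd2, Mcm5 and Lgr5 lost their calls without the 5 libraries. Their knockout amplitudes there were 0.18, 0.22, 0.22, 0.165, 0.19 and 0.13, in that order. In knockout CT9 replicate 3 the G2/M level was 0.14 log2 units above the control mean, whereas the other 2 libraries of knockout CT9 were at -0.24 and -0.37.

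Of the 51 genes, only Wee1 passed the test of a difference in rhythm between genotypes. The fitted amplitude was lower in knockout for 15 of 18 G2/M genes (median 0.28 in control, 0.18 in knockout), 14 of 23 G1/S genes (0.20 and 0.19) and 6 of 10 stem or Wnt genes (0.18 and 0.18). Over all genes tested 49.5% had a lower amplitude in knockout, and among the genes with a control rhythm 86.2% did, so that the G2/M count, with 16 of the 18 rhythmic in control, is close to the share among such genes. Without the 5 libraries the G2/M count was 13 of 18, with medians of 0.27 and 0.22. Cyclin B1 may serve as the example: its knockout libraries read 26.3, 52.96, 24.9 and 31.4 CPM at CT1, 22.7, 23.6, 22.6 and 24.2 at CT13 and 35.7, 33.7, 35.4 and 30.4 at CT21. At CT21 each was below each control library, at CT13 both genotypes overlapped, and the difference of its rhythms (amplitudes 0.41 ± 0.07 and 0.23 ± 0.07, SE) did not pass the test (edgeR adjusted p = 0.702). For the rhythm difference as a whole, 1 of 51 genes passed, against 1.5% of all genes tested; 3 of the 51 had an unadjusted p under 0.05 (1560 of all 15646 genes tested), and DESeq2 and limma-voom also called 1. No G1/S, stem or Wnt gene passed that test with any of these 3 tools; 1 G1/S gene and 0 stem or Wnt genes had an unadjusted p under 0.05.

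Wee1, the kinase that restrains CDK1, lost its daily peak in knockout. In control it read 15.9, 18.9, 18.1 and 17.8 CPM at CT1, 19.2, 17.0, 21.2 and 15.1 at CT5, 27.2, 32.8, 24.6 and 30.5 at CT9, 40.8, 40.6, 47.02 and 47.8 at CT13, 36.4, 35.7, 36.0 and 33.9 at CT17, and 16.1, 25.1, 20.8 and 29.2 at CT21. In knockout it read 17.6, 19.3, 16.7 and 20.6 CPM at CT1, 22.1, 24.7, 22.6 and 16.6 at CT5, 22.0, 26.3 and 16.6 at CT9, 19.6, 22.7, 20.4 and 24.6 at CT13, 19.1, 23.7, 24.0 and 22.0 at CT17, and 19.9, 21.7, 20.5 and 13.6 at CT21. The highest knockout library of any time, 26.3 CPM, was below every control library of CT13 and CT17, whereas at CT1 and CT5 the genotypes overlapped. The amplitude was 0.68 ± 0.06 in control (peak at CT14.0, edgeR adjusted p = 4.16e-12) and 0.13 ± 0.06 in knockout (adjusted p = 0.302), and the rhythms differed (adjusted p = 3.17e-05). The log2 fold change, knockout minus control, was -1.02 ± 0.15 (SE) at CT13 (adjusted p = 4.54e-06) and -0.68 ± 0.15 at CT17 (adjusted p = 0.00537), and the test of genotype by time passed with an adjusted p of 0.000906. That test passed for 1 of 51 genes, against 1.18% of all genes tested. Wee1 is at 7:110122046-110143286 on the plus strand of GRCm38, with 3419 bases of exon. In control Wee1 was highest in the CT13 group, in which Ccnb1 and Ccnb2 were lowest. In knockout Ccnb1 and Ccnb2 were lowest at CT13 as well, with means of 23.3 and 24.0 CPM. A link between Wee1 and these genes was not tested.

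**Figure D4:**
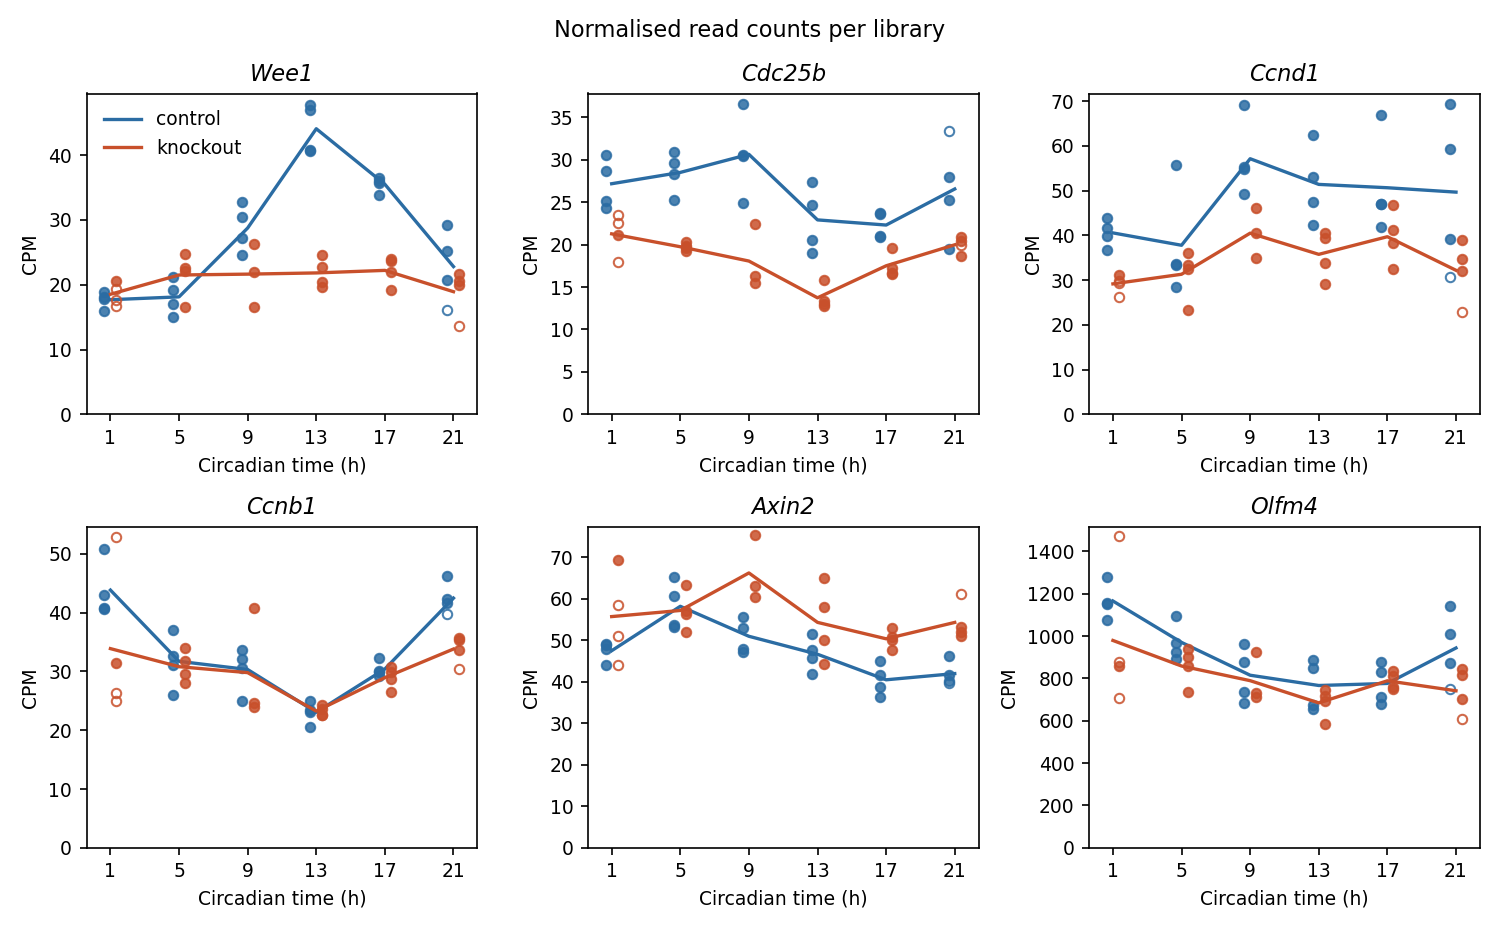
Normalised read counts (CPM, y axis from 0) of Wee1, Cdc25b, Ccnd1, Ccnb1, Axin2 and Olfm4 by circadian time (x axis, h). Points are libraries, open points the 5 libraries that stand apart, and lines join group means; at CT13 the 4 control libraries of Wee1 sit between 40.6 and 47.8 CPM and the 4 knockout libraries between 19.6 and 24.6.

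Cdc25b, a phosphatase that switches CDK1 on and so opposes WEE1, was lower in knockout at nearly every time. It read 30.6, 24.3, 28.7 and 25.1 CPM in control and 17.97, 23.5, 22.5 and 21.1 in knockout at CT1, 30.9, 29.6, 25.2 and 28.3 against 19.8, 19.2, 20.4 and 19.6 at CT5, and 36.6, 30.5, 30.5 and 24.9 against 16.3, 22.4 and 15.5 at CT9. It read 27.4, 20.6, 19.0 and 24.7 against 12.7, 13.4, 15.9 and 12.9 at CT13, 23.7, 23.6, 20.9 and 21.0 against 16.7, 17.2, 16.5 and 19.6 at CT17, and 33.4, 25.3, 28.0 and 19.5 against 20.4, 20.9, 18.7 and 19.9 at CT21. The genotypes overlapped at CT21 and at no other time. The log2 fold change over all times was -0.52 ± 0.06 (SE, edgeR adjusted p = 1.21e-09), and it was -0.51 without the 5 libraries that stand apart. A daily rhythm was called in both genotypes, with amplitudes of 0.19 ± 0.06 (peak at CT4.85) in control and 0.26 ± 0.06 (CT1.02) in knockout, and the difference did not pass the test (adjusted p = 0.421). The call of the control rhythm was lost without control CT17 replicate 3 (adjusted p = 0.0527) and without the low-count filter (0.09).

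With the 6 times averaged, the 51 genes were called between genotypes about as often as other genes. The difference of the 6 knockout and 6 control group means passed for 11 of 51 genes, against 23.3% of all genes tested. All 4 of the called G2/M genes were lower in knockout (Cdc25b, Wee1, Plk1 and Top2a), a direction in which 11% of all genes tested were called. The calls of Plk1 and Top2a were lost without the low-count filter (edgeR adjusted p-values of 0.0593 and 0.0602). Of the called G1/S genes 3 were higher (Cdkn1a, Cdc25a and Pcna) and 2 lower (Ccnd1 and Ccne1), and of the called stem or Wnt genes Axin2 was higher and Prom1 lower. The median log2 fold change was -0.14 over the 18 G2/M genes, of which 17 were negative, -0.09 over the 23 G1/S genes, -0.09 over the 10 stem or Wnt genes and -0.01 over all genes tested. Of all 15646 genes tested, 7619 had a positive value. The T cell marker sums were also lower in knockout (above), and their part in the genotype differences was not tested. Without the 5 libraries 13 genes passed (21.4% of all genes tested), 8 of them the same: Cdkn1a, Cdc25a and Pcna no longer passed, and Ccnb1, Birc5, Mcm3, Mcm6 and Olfm4, all lower in knockout, did.

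**Figure D5:**
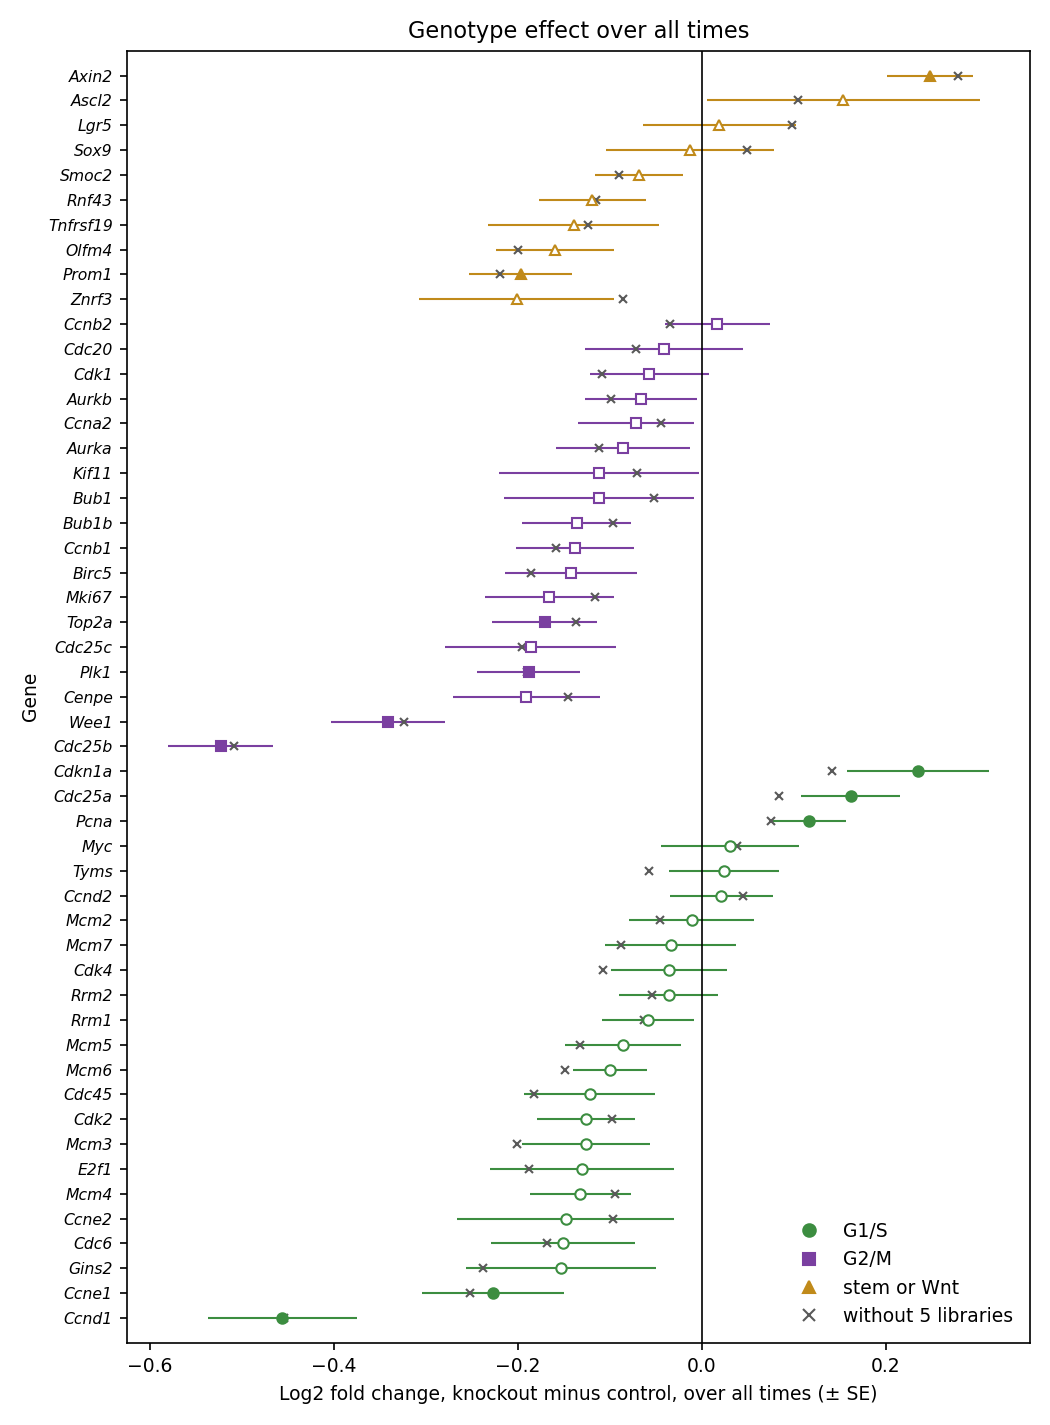
Log2 fold change over all times, knockout minus control, with its standard error (x axis), for the 51 genes (y axis). Filled symbols passed at an adjusted p under 0.05 and crosses give the value without the 5 libraries that stand apart; Cdc25b at -0.52, Ccnd1 at -0.46 and Wee1 at -0.34 lie farthest to the left and Axin2 at 0.25 farthest to the right.

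Among the regulators of G1, cyclin D1 (Ccnd1), the cyclin that answers growth and Wnt signals, was lower in knockout. It read 39.95, 36.7, 41.6 and 43.9 CPM in control and 29.9, 26.2, 29.2 and 31.2 in knockout at CT1, 55.6, 33.5, 28.6 and 33.4 against 23.4, 32.5, 36.0 and 33.3 at CT5, and 55.2, 54.8, 69.2 and 49.3 against 40.5, 46.0 and 34.9 at CT9. It read 53.1, 62.5, 47.5 and 42.4 against 40.5, 33.9, 39.4 and 29.2 at CT13, 66.9, 41.8, 46.9 and 46.9 against 32.5, 41.2, 46.8 and 38.2 at CT17, and 30.6, 59.4, 69.4 and 39.2 against 32.0, 34.7, 39.05 and 22.96 at CT21. The genotypes did not overlap at CT1, CT9 and CT13. The log2 fold change over all times was -0.46 ± 0.08 (SE, edgeR adjusted p = 2.88e-05), but at no single time did it pass. The paralog Ccnd2 did not pass (0.02 ± 0.06, adjusted p = 0.833), and cyclin E1 (Ccne1), which acts later in G1, was lower with a log2 fold change of -0.23 ± 0.08 (adjusted p = 0.0269). The call of Ccne1 was lost without the low-count filter (0.131).

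Cdkn1a encodes p21, the inhibitor of cyclin-dependent kinases that p53 induces. Its values at CT1 were 118, 122, 130 and 148 CPM in control and 275, 164, 208 and 168 in knockout, and at CT21 they were 238, 166, 159 and 178 in control and 144, 178, 159 and 358 in knockout. The libraries with 275 and 358 CPM, and the control library with 238 CPM, are among the 5 that stand apart. The log2 fold change over all times was 0.23 ± 0.08 (SE, edgeR adjusted p = 0.0227) with all libraries and 0.14 (adjusted p = 0.061) without those 5. Cdc25a, the G1 phosphatase, went from 0.16 (0.0235) to 0.08 (0.267) and Pcna from 0.12 (0.0297) to 0.07 (0.192) on the same comparison. Myc did not pass in either fit.

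Among the stem and Wnt genes Axin2 was higher in knockout, by 0.25 ± 0.05 log2 units (SE, edgeR adjusted p = 7.82e-05), and by 0.28 without the 5 libraries. It read 47.25, 48.02, 53.02 and 55.7 CPM in control and 63.0, 60.4 and 75.4 in knockout at CT9, 41.7, 45.0, 36.4 and 38.8 against 47.7, 50.8, 53.05 and 50.03 at CT17, and 39.8, 46.3, 40.2 and 41.8 against 51.9, 53.3, 50.97 and 61.1 at CT21. At those 3 times the genotypes did not overlap, whereas at CT5 (53.4 to 65.3 CPM in control, 52.1 to 63.3 in knockout) they did. Prom1 was lower, with a log2 fold change of -0.20 ± 0.06 (adjusted p = 0.00801). Olfm4 had a log2 fold change of -0.16 ± 0.06 (adjusted p = 0.0655), and -0.20 (0.00544) without the 5 libraries. Lgr5 was at 15.1 CPM in control and 15.3 in knockout over the group means, with a log2 fold change of 0.02 ± 0.08 (adjusted p = 0.902). Of Axin2, Olfm4 and Lgr5, only Axin2 passed with all libraries.

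At single times few of the 51 genes differed. The counts were 1 at CT5 (Cdc25b, against 0.837% of all genes tested), 1 at CT9 (Cdc25b, 3.6%), 2 at CT13 (Wee1 and Cdc25b, 3.39%), 1 at CT17 (Wee1, 2.09%) and 0 at CT21 (1.43%). The CT5 call, with a log2 fold change of -0.53 ± 0.14 (SE, edgeR adjusted p = 0.0435), was lost on leaving out any of 7 single libraries, up to an adjusted p of 0.133. It was also lost without the low-count filter (0.186). The calls of Cdc25b at CT9 (-0.76 ± 0.15, adjusted p = 0.000799) and at CT13 (-0.74 ± 0.14, adjusted p = 0.000441) were not lost in any setting tried. At CT21, 7 of the 51 had an unadjusted p under 0.05 (1603 of all 15646 genes tested), and DESeq2 and limma-voom also called 0. At CT1, 6 passed, against 20.7% of all genes tested: Cdkn1a and Pcna higher in knockout, and Cdk2, Cdc6, Top2a and Lgr5 lower. Their log2 fold changes were 0.655, 0.33, -0.42, -0.54, -0.40 and -0.63, in that order. Without the 5 libraries they were 0.34, 0.10, -0.26, -0.56, -0.21 and -0.12. Of the 4 knockout CT1 libraries 3 stand apart; without the 5, none of the 51 passed at CT1 and 0.243% of all genes tested did, with 1 knockout library left whose spread is assumed to be that of the other groups. Without those 5 libraries further genes passed at CT9 (Cdc25a at 0.39 and Axin2 at 0.38, 6.25% of all genes tested called), at CT13 (Mcm3 at -0.45 and Mcm6 at -0.28, 7.01%) and at CT17 (Ccne2 at -0.65 and Axin2 at 0.32, 5.07%), with edgeR adjusted p-values of 0.0139 to 0.0486.

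At CT13 none of the 23 G1/S genes passed with all libraries, and 8 had an unadjusted p under 0.05 (2236 of all 15646 genes tested). Of the 23, 3 had a log2 fold change above 0, beside 7640 of all 15646 genes tested. The median of the 23 was -0.20, beside -0.01 over all genes tested. DESeq2 called 0 and limma-voom 0 of the 23. Mcm6 is an example, with 85.1, 92.3, 92.3 and 79.8 CPM in control and 72.4, 71.4, 74.5 and 71.2 in knockout at that time. These ranges did not overlap, while at CT5 (62.3 to 75.5 CPM in control, 64.2 to 70.0 in knockout) they did. Its log2 fold change at CT13 was -0.27 ± 0.10 (SE, edgeR adjusted p = 0.128), and -0.28 (0.0328) without the 5 libraries, none of which is a CT13 library.

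Other genes of the same pathways, which are not among the 51, were read from further lists. Among 32 further G2/M genes 24 had a control rhythm (20.5% of all genes tested), of which 21 peaked between CT21 and CT3 (23.4% of all genes with a control rhythm), and 13 had a knockout rhythm (14.6% of all genes tested). Examples are the centromere histone Cenpa (amplitude 0.42 in control and 0.21 in knockout, peaks at CT23.6 and CT23.8), securin (Pttg1, 0.38 and 0.32), the spindle protein Nusap1 (0.41 and 0.27) and cyclin F (Ccnf, 0.40 and 0.27), whose knockout rhythm passed with all libraries (edgeR adjusted p = 0.0463) and not without the 5 that stand apart (0.331). The knockout rhythms of Cenpa and Nusap1 were lost on leaving out any of 12 and 3 single libraries (up to 0.106 and 0.0981). Between genotypes 3 of the 32 were called, all lower in knockout, below the 23.3% of all genes tested; of these Cenpa had a log2 fold change of -0.18 (0.0137), and -0.13 (0.0803) without the 5 libraries. Among 33 measured of 34 further G1/S genes 4 had a control rhythm (20.5% of all genes tested) and 10 were called between genotypes (23.3%), 3 higher and 7 lower. The transcription factor E2f2 was higher by 0.55 ± 0.05 log2 units (SE, edgeR adjusted p = 1.08e-10), and its control rhythm (amplitude 0.67, peak at CT23) differed from that in knockout (0.19, adjusted p of the difference = 0.000218). The CDK inhibitor Cdkn1c was higher by 0.73 ± 0.17 (adjusted p = 0.000769), and the replication factor Mcm10 was lower, at -0.20 ± 0.06 (adjusted p = 0.00748). Cyclin D3 (Ccnd3) had a control rhythm with a peak at CT15.9 (adjusted p = 0.000963).

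Among 27 measured of 29 further Wnt and crypt genes, 6 were called between genotypes, 1 higher and 5 lower, a share close to the 23.3% of all genes tested. The Wnt effector Tcf7l2 was lower, with a log2 fold change of -0.36 ± 0.06 (SE, edgeR adjusted p = 2.84e-05), as were the Wnt receptor Fzd5 at -0.25 ± 0.06 (0.000876) and the growth factor inhibitor Lrig1 at -0.15 ± 0.04 (0.00579). Without the low-count filter the call of Lrig1 was lost (0.0722). The R-spondin receptor Lgr4 had a rhythm in both genotypes, with amplitudes of 0.34 (peak at CT4.78) and 0.28 (CT6.18), of which the knockout call was lost on leaving out either of 2 single libraries (up to an adjusted p of 0.0768). Of 10 further targets of p53, 1 was called between genotypes (23.3% of all genes tested), the p53 ubiquitin ligase Mdm2, at -0.17 ± 0.05 (edgeR adjusted p = 0.0145). That call was lost without the 5 libraries (-0.11, adjusted p = 0.0636) and without the low-count filter (0.0638). The apoptosis gene Bbc3 had a rhythm in knockout (adjusted p = 0.0414) that was lost without the 5 libraries (0.366).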

How the data were processed

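Poly(A) RNA of whole jejunum was sequenced from TruSeq Stranded mRNA libraries, per the labels' protocols. The deposited values are raw counts per gene, made by the authors. The submitters' processing notes name the aligner STAR 2.7.5c, the counter featureCounts 1.4.6, Trimmomatic 0.39 and the mm10 genome. The strand setting and the annotation release were not given in the sources used here, and reads of overlapping or near-identical genes may be split or dropped. Of 55401 IDs, 260 had no match in GENCODE M21.

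Genes were kept by edgeR's filterByExpr (minimum count 10, minimum total 15). Counts were TMM-scaled and tested with edgeR 4.0.16 quasi-likelihood models (R 4.3.3) over all 47 libraries: a mean per group for genotype and time (35 residual degrees of freedom), and a 24-h cosine per genotype for rhythms (41). Benjamini-Hochberg adjustment ran over all genes tested, with a threshold of 0.05. The scripts were tested on simulated data. Alternatives were DESeq2 1.42.0, its size factors, limma 3.58.1 (voom), upper-quartile scaling, no low-count filter and each library left out; leaving out the 5 libraries with a relative log expression range above 0.5 was chosen after seeing the data. No libraries were duplicates. The members and lists were chosen with earlier results of these data known. Members were named by lowest adjusted p (up to 30) with a fixed set, and up to 4 genes from each other list; Bub1, Bub1b, Kif11, Rrm1, Cdk2, Cdk4, Mcm3, Mcm6, Ascl2, Smoc2, Sox9, Tnfrsf19, Rnf43 and Znrf3 fall outside this rule and were named after their values were seen.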

Additional observations from a re-analysis of the deposited data

Results flagged for a closer look

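Of 385 groups of 4 libraries checked, 12 had 1 library far from the other 3, and chance flags about 1 in 20 groups. In knockout CT21 replicate 4, one of the 5 libraries that stand apart, Cdkn1a was at 358 CPM (others 144 to 178), Birc5 at 72.6 CPM (42.2 to 44.2) and Ccna2 at 42.9 CPM (64.5 to 65.4). Tyms was at 33.4 CPM in control CT21 replicate 1, which also stands apart (25.8 to 26.9). In control CT17 replicate 1, Top2a was at 230 CPM (176 to 181) and Birc5 at 48.5 CPM (36.0 to 37.9), and in control CT17 replicate 4 Ccne2 was at 18.1 CPM (16.1 to 16.2). In knockout CT13 replicate 1 the mean G2/M level was -0.533 log2 units from the control mean (-0.361 to -0.352), while its Plk1 was at 22.8 CPM (18.3 to 18.6). Plk1 was at 33.4 CPM in control CT1 replicate 3 (27.8 to 28.4). Mcm5 was at 51.8 CPM in control CT9 replicate 1 (40.7 to 42.3), the library with the highest B cell marker sum, and Lgr5 was at 12.6 CPM in control CT9 replicate 2 (18.01 to 18.4).

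The course of Wee1 over the day differed between genotypes, by the test of the rhythm difference (edgeR adjusted p = 3.17e-05) and by that of genotype by time (0.000906).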

How the results depend on the processing

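Counts of the 51 genes past the threshold are given here where a setting moved them by more than 1.5 times. Without the low-count filter, which raises the number of genes tested to 33965, the genotype effect over all times gave 7 genes (11 with the filter), of which 3 G1/S (5) and 2 G2/M (4), the effect at CT1 gave 1 (6) and at CT5 0 (1), differences among times in knockout gave 6 (11), the control rhythm of G2/M genes 10 (16) and the knockout rhythm of stem or Wnt genes 0 (1). Upper-quartile scaling gave 11 at CT1 and 2 at CT9. Without the 5 libraries that stand apart the counts were 0 at CT1, 3 at CT9, 4 at CT13, 3 at CT17, 35 for differences among times in control (21 with them) and 0 for the knockout rhythm of stem or Wnt genes; the cause was not tested. On leaving out 1 library at a time, the counts ranged from 10 to 16 for the genotype effect over all times, 1 to 11 at CT1 (1 without control CT1 replicate 1 or knockout CT1 replicate 1), 0 to 1 at CT5, 1 to 2 at CT9 and 0 to 1 at CT21. They ranged from 15 to 28 for differences among times in control, 6 to 17 in knockout and 1 to 2 for genotype by time. The control rhythm gave 23 to 31 and the knockout rhythm 6 to 20, of which G1/S genes 2 to 11 and stem or Wnt genes 0 to 1. Of 108 gene results followed, 87 were called and 0 reversed; 36 calls were lost in some other setting and 29 on leaving out a library. No paired analysis was possible because the replicate numbers were given in accession order and pair nothing. Depth limits the low genes: the lowest control libraries held 1.03 CPM of Ascl2, 3.455 CPM of Znrf3, 3.55 CPM of Cdc25c, 3.87 CPM of Ccne1 and 6.45 CPM of Lgr5.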
